A study of Homo sapiens with 24 samples.

Results

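The 7 genes described here encode enzymes that make deoxynucleotides for DNA synthesis or keep the pool clean: RRM1, RRM2, TYMS, DTYMK, TK1, DUT and DCTPP1. They were listed by name and found by their Ensembl identifiers among the 12285 genes of the table. All 7 were present and averaged at least 1 FPKM (fragments per kilobase of transcript, scaled for sequencing depth). RNA was sequenced from K562 cells, an established human leukaemia line that grows in suspension and makes embryonic and fetal globins, cultured in RPMI with 10% bovine calf serum after centrifugal elutriation, a separation by cell size that starts the culture at 1 stage of the cell cycle. Sampling ran from 0 h to 46 h at intervals of 2 h, without treatment, and gave 1 library per time point. The study used the series to find time points at which many transcripts depart from their neighbours, which it calls STRIPEs, and it placed them at 16 h and 18 h, with a milder one at 32 h.

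Cells need the 4 deoxynucleotides mostly in S phase, when DNA is copied. Ribonucleotide reductase, a complex of the large subunit RRM1 and the small subunit RRM2, reduces ribonucleotides to deoxyribonucleotides. Thymidylate is made either from deoxyuridylate by TYMS or from thymidine by the salvage enzyme TK1, and DTYMK carries it to the diphosphate. DUT and DCTPP1 are pyrophosphatases. DUT removes dUTP and so supplies the substrate of TYMS, and DCTPP1 removes dCTP and its modified forms. Transcription of several of these genes is known to rise at the entry to S phase under E2F factors.

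There were no replicates, so each value is that of a single library, its error cannot be given, and fewer cells at a stage cannot be told apart from less RNA per cell. Read counts were not used here and the depth is unknown. The sum of FPKM over genes reached 566247 (16 h) and 591309 (18 h), and no more than 520382 elsewhere. All 13 erythroid markers examined were found, with a summed level of 4044 to 9118 FPKM, while 2 of 6 lymphoid markers were in the table with a summed level of 4.81 to 14.1 FPKM. Of 4 monocyte markers, 1 was in the table (10.7 to 28.2 FPKM), as was 1 of 6 fibroblast markers (1.70 to 3.94 FPKM). Each member is described first over all 24 time points, and then without 6 h, 16 h, 18 h and 32 h. The hour 6 h was added to the study's time points after the values were seen, because RRM2 had its highest value there.

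The promoters of the 7 genes differed in the short motifs they held, and the sites below are shown as a map of where the cell-cycle letters lie. Windows of 300 bases, from 250 before to 50 after the RefSeq start (GRCh38.p14), were searched on both strands, with the most downstream start used for genes with several. CCAAT is the box bound by NF-Y. The E2F letters searched were TTTCCCGC together with its variants TTTGGCGC and also TTTCGCGC and lastly TTTGCCGC. The letters of the cell cycle homology region (CHR) were TTTGAA and also TTCGAA and also TTTAAA. No 2 of these matches overlapped in the sites printed. Capitals mark the match, and a match is a description of letters and not of binding.
RRM2, CCAAT 123 bases before the start (chr2:10122604-10122633, plus strand): ggcaaggcgcagCCAATgggaagggtcgga
RRM2, CCAAT 93 bases before the start (chr2:10122634-10122663, plus strand): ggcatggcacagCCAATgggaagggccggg
RRM2, CCAAT 66 bases before the start (chr2:10122661-10122690, plus strand): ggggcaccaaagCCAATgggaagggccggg
RRM2, TTTAAA 30 bases before the start (chr2:10122697-10122726, plus strand): cggcgcgggagaTTTAAAggctgctggagt
TK1, CCAAT on the other strand, 77 bases before the start (chr17:78187112-78187141, minus strand): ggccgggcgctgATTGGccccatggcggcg
TK1, CCAAT on the other strand, 46 bases before the start (chr17:78187081-78187110, minus strand): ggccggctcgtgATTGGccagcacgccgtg
TK1, TTTAAA 27 bases before the start (chr17:78187062-78187091, minus strand): agcacgccgtggTTTAAAgcggtcggcgcg
TYMS, E2F letters on the other strand, 39 bases before the start (chr18:657603-657632, plus strand): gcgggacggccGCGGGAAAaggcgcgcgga
DUT, E2F letters on the other strand, 42 bases before the start (chr15:48332144-48332173, plus strand): gggcggggctgGCGGGAAAtttcggttttg
DUT, E2F letters 27 bases before the start (chr15:48332159-48332188, plus strand): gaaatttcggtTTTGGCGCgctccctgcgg

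Of the 7 windows, CCAAT was found in RRM1, RRM2, TK1 and DTYMK, which is 4 of 7, against 35.4% of the 27305 promoter windows in the table. RRM2 held 3, which 3.30% of windows did. E2F letters were found in TYMS and DUT, against 3.21% of windows. CHR letters were found in 5 of 7 windows, against 25.7%, and the DCTPP1 window held none of the 3 motifs.

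The 2 subunits of ribonucleotide reductase, RRM1 and RRM2, both had their lowest value of the series at 0 h. RRM1, which carries the catalytic and regulatory sites, was at 91.3 FPKM at 0 h and 102.2, 105.3, 110.3, 115.0 and 115.4 FPKM from 2 h to 10 h. It was then at 109.9 and 107.7 FPKM at 12 h and 14 h. At 16 h and 18 h it was at 146.9 and 152.6 FPKM, the highest of the series. From 20 h to 46 h it lay between 99.5 FPKM at 20 h and 117.3 FPKM at 28 h. Without the 4 named time points its coefficient of variation was 5.61%, and 94.6% of the 7169 genes averaging 10 FPKM or more varied more.

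RRM2, the subunit that makes the tyrosyl radical, began at 117.6 FPKM at 0 h and stood at 151.0, 190.1 and 279.2 FPKM from 2 h to 6 h, the last being its highest value. It was at 199.4, 201.6, 186.3 and 168.3 FPKM from 8 h to 14 h, at 275.6 and 271.9 FPKM at 16 h and 18 h, and at 155.1 and 173.3 FPKM at 20 h and 22 h. In the second 24 h it was at 196.5 and 244.7 FPKM at 24 h and 26 h, 277.2 FPKM at 32 h, and between 183.9 and 209.5 FPKM at the other hours. Its next highest values after 6 h were those at 32 h, 16 h and 18 h. Without these 4 time points, its level at 26 h was 2.08 times that at 0 h.

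The ratio of RRM2 to RRM1, both per length, was 1.29 at 0 h, had a median of 1.78 and reached 2.55 at 32 h. At 16 h and 18 h, where both subunits were high, it was near the median. The alternative small subunit RRM2B, which supplies deoxynucleotides outside S phase and in the damage response, had a median of 11.8 FPKM and was highest at 18 h (18.0 FPKM) and 22 h (17.2 FPKM).

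**Figure D1:**
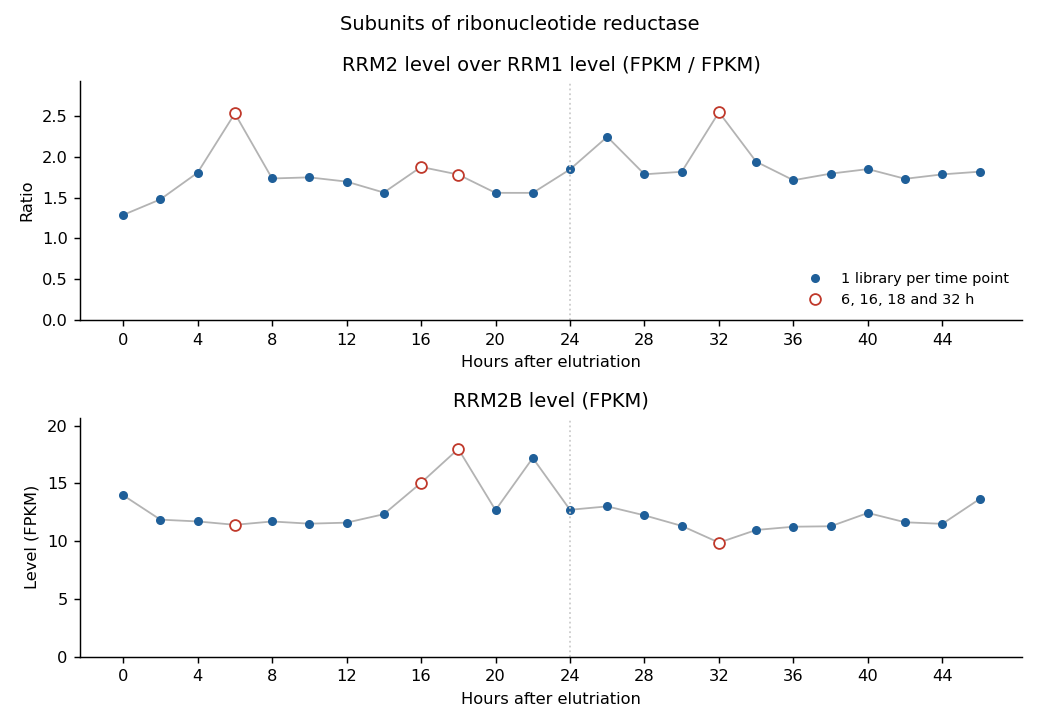
Ratio of the RRM2 level to the RRM1 level (upper panel) and the RRM2B level in FPKM (lower panel) by hours after elutriation, with 1 library per point and open points at 6, 16, 18 and 32 h. The ratio is lowest at 0 h (1.29) and highest at 32 h (2.55), and RRM2B is highest at 18 h (18.0 FPKM).

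On the de novo branch of thymidylate synthesis, TYMS had the highest mean of the 7 genes, 312 FPKM. It began at 272.8 FPKM at 0 h, the lowest of the series, and stood at 306.4, 326.1, 336.5, 364.3 and 370.5 FPKM from 2 h to 10 h. It was then at 357.1, 328.6, 315.9, 305.0, 304.5 and 296.8 FPKM up to 22 h. The second 24 h was flatter: TYMS was at 307.9 FPKM at 24 h, at 329.9 FPKM at 30 h and between 281.4 and 316.1 FPKM at the other hours. Its values at 16 h and 18 h lay between those at 14 h and 20 h.

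DTYMK, the kinase after TYMS and TK1, had the lowest mean, 49.8 FPKM. It was at 43.8 FPKM at 0 h and 62.8 FPKM at 10 h, its highest value, at 30.6 and 25.9 FPKM at 16 h and 18 h, and at 55.8 FPKM at 20 h. In the second 24 h it was at 58.1 FPKM at 30 h, 43.3 FPKM at 32 h and 40.1 FPKM at 46 h. Over the 22 time points without 16 h and 18 h, DTYMK and TYMS were ranked alike (Spearman rho = 0.87). Over all 24 time points rho was 0.74. Both are descriptions over libraries in which each value of both genes shares a library.

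TK1, the salvage kinase, was at 76.2 FPKM at 0 h and 92.8 FPKM at both 4 h and 10 h. It was at 49.7 and 40.2 FPKM at 16 h and 18 h, the lowest of the series, and at 96.1 FPKM at 22 h, with 111.2 FPKM at 28 h and its highest value, 114.4 FPKM, at 30 h. Apart from 28 h and 30 h, no hour had a higher TK1 value than 22 h. With 1 library at each, the hour and the library cannot be told apart in these values. AFMID, which starts on the other strand 84 bases from TK1 in GENCODE 29, was also highest at 30 h, at 77.7 FPKM, and stood at 67.6 FPKM at 28 h. AFMID and TK1 do not overlap in that annotation, and whether the libraries kept the strand was not given in the sources used here.

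Of the 2 pyrophosphatases, DUT began at 221.0 FPKM and stood at 267.0, 273.3, 208.0 and 275.0 FPKM from 2 h to 8 h, the last being its highest value. It was at 139.6 and 137.7 FPKM at 16 h and 18 h and 161.9 FPKM at 32 h, which were its 3 lowest values. DCTPP1 began at 87.6 FPKM, was at 72.6 FPKM at 6 h and had its highest value, 107.1 FPKM, at 10 h. It was at 40.6 and 45.8 FPKM at 16 h and 18 h, 57.4 FPKM at 32 h and 63.7 FPKM at 46 h, which were its 4 lowest values.

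**Figure D2:**
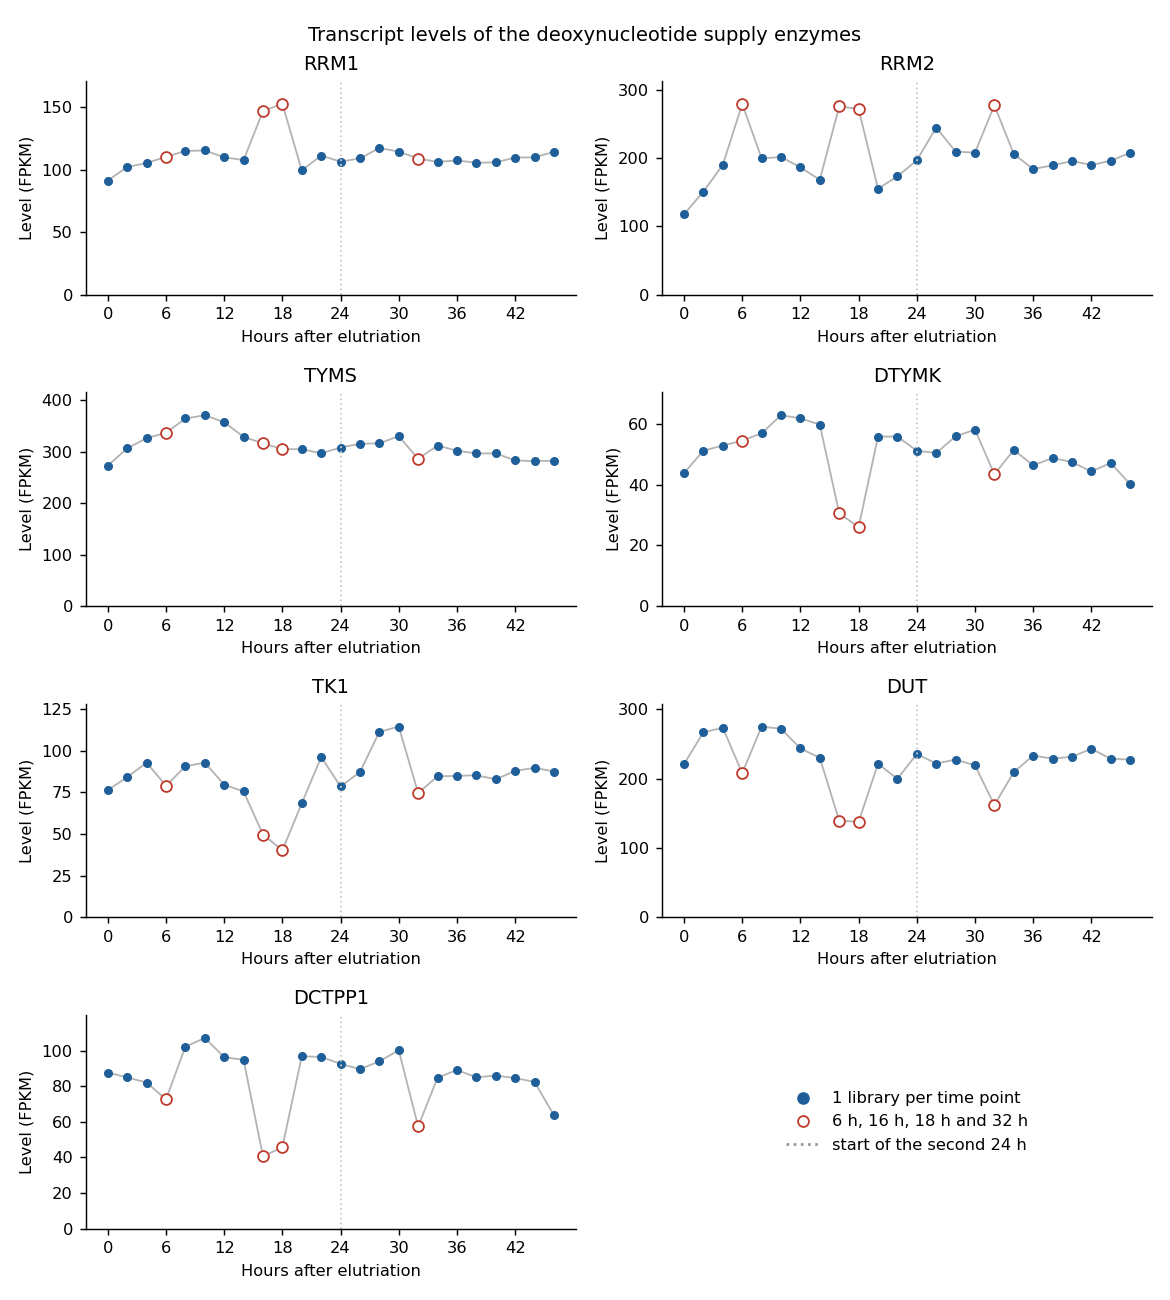
Transcript level (FPKM) of each of the 7 genes by hours after elutriation, 1 library per point, with open points at 6 h, 16 h, 18 h and 32 h and a dotted line at 24 h. RRM1 and RRM2 are high at 16 h and 18 h, DTYMK, TK1, DUT and DCTPP1 are low there, and TYMS runs smoothly through them to and from its value of 370.5 FPKM at 10 h.

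Within the first 24 h, and leaving out 6 h, 16 h and 18 h, 5 of the 7 genes were highest at 10 h, namely RRM1, RRM2, TYMS, DCTPP1 and DTYMK. That hour was the highest for 9.21% of all 12285 genes. DUT was highest at 8 h and TK1 at 22 h. In the second 24 h, leaving out 32 h, TYMS, TK1, DCTPP1 and DTYMK were highest at 30 h, as were 18.4% of all genes. RRM1, RRM2 and TYMS were lowest at 0 h among all 24 time points, as were 5.29% of genes. These hours were chosen after the values were seen and were not tested. For comparison, the G1/S cyclin CCNE2 was highest at 2 h (38.9 FPKM), the replication helicase subunit MCM5 at 4 h (120.1 FPKM) and the mitotic cyclin CCNB1 at 22 h (236.7 FPKM).

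Whether the members followed a 24 h order in time was asked with the JTK statistic, the largest agreement in rank between a gene and a 24 h cosine over 12 phases, with a permutation p from 100000 orderings adjusted by Benjamini–Hochberg over all genes. TYMS alone among the 7 passed (adjusted permutation p = 0.0367, phase 8 h). In all, 11.9% of genes passed (1460, or 1602 with 1000000 orderings), so 1 of 7 is near the background. The adjusted permutation p was 0.139 for DTYMK, 0.292 for TK1, 0.506 for RRM2, 0.724 for DUT, 0.771 for DCTPP1 and 0.88 for RRM1. The TYMS call was lost when each library was scaled to its median, its upper quartile or by quantile normalization, with a GC trend removed, with a period of 28 h, and when any 1 of 11 time points was left out (4, 6, 8, 10, 12, 26, 28, 30, 42, 44 or 46 h), with adjusted permutation p up to 0.0887 among the latter. Without 6 h, 16 h, 18 h and 32 h it was 0.0227, where 8.64% of genes passed. A run not planned at the start also left out 22 h, 28 h and 30 h, the hours of the highest TK1 values. TYMS passed there (adjusted permutation p = 0.0459), and neither TK1 nor any other member did.

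A cosine of 24 h fitted with limma on log2(FPKM + 1) gave none of the 7 an adjusted p of 0.05 or below, while 9.02% of the 12253 genes tested passed. At an unadjusted p under 0.05, TYMS, TK1 and DTYMK would have been called. The amplitude was 0.11 ± 0.03 (SE) on the log2 scale for TYMS with a fitted peak at 8.77 ± 1.19 h (limma adjusted p = 0.0879), 0.23 ± 0.08 for TK1 with a peak at 5.06 ± 1.31 h (limma adjusted p = 0.124), and 0.20 ± 0.07 for DTYMK with a peak at 6.63 ± 1.41 h (limma adjusted p = 0.154). With a linear drift added to the fit TK1 passed, at an amplitude of 0.31 (limma adjusted p = 0.0292), as did 11.6% of genes. That fit kept 16 h and 18 h, where TK1 was lowest. With these hours left out and no drift, its amplitude was 0.09 ± 0.05 (limma adjusted p = 0.367). Without 6 h, 16 h, 18 h and 32 h, TYMS passed at an amplitude of 0.13 ± 0.03 (limma adjusted p = 0.0269), as did 10.2% of genes, and DTYMK had the same amplitude to 2 decimals, 0.13 ± 0.05 (limma adjusted p = 0.132). The fitted peaks of all 7 then lay between 5.63 h for TK1 and 8.65 h for DCTPP1, but only TYMS passed. For the others the limma adjusted p was 0.132 to 0.532, with a standard error of the peak up to 2.73 h for RRM1. Over all 24 time points RRM1 peaked at 15.2 ± 2.76 h, and the others between 5.06 h and 9.89 h. With only 16 h and 18 h left out, DUT peaked at 12.8 ± 42.5 h and DCTPP1 at 13.4 ± 6.76 h. The others then peaked between 4.88 h and 8.62 h.

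**Figure D3:**
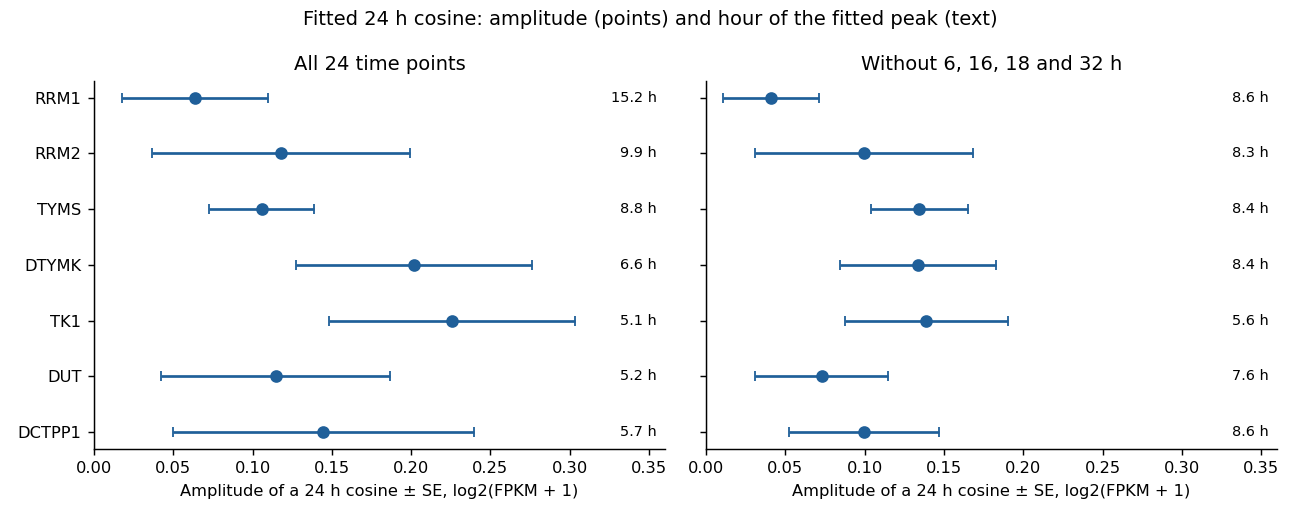
Amplitude of a fitted 24 h cosine on log2(FPKM + 1) with its standard error for each gene, from all 24 time points (left) and without 6, 16, 18 and 32 h (right), with the hour of the fitted peak beside each point. The amplitude of TK1 is 0.23 on the left and 0.14 on the right, and that of TYMS is 0.11 and 0.13.

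At 16 h and 18 h the members moved apart. Deviations are means over both hours from a line drawn from 14 h to 20 h on log2(FPKM + 1), and the reference is the same measure at 16 other consecutive pairs. RRM1 lay 0.53 above the line and RRM2 0.76 above. DCTPP1 deviated by -1.13, DTYMK by -1.01, DUT by -0.70 and TK1 by -0.67. RRM1 and RRM2 were above the range of their own reference pairs, as were 43.6% of all genes, and the other 4 were below theirs, as were 28.0%. TYMS, at -0.03, was inside. DCTPP1 and DTYMK were 2-fold or more below, as were 7.11% of genes, and none of the 7 was 2-fold above, as were 8.95%. At 1.5-fold DUT and TK1 were also below, as were 16.8% of genes, and RRM2 was above, as were 23.9%. The median over all genes was 0.14.

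These deviations moved with the base composition of the transcripts. Over 12148 genes the correlation across genes (Pearson r) of the deviation at 16 h and 18 h with GC content was -0.51, and genes are not independent replicates. The longest transcripts of RRM1 and RRM2 held 43.5% and 45.8% GC, those of DCTPP1, DTYMK and TK1 55.6%, 59.7% and 62.8%, and that of TYMS 49.8%, against a median of 47.8% over all genes. DUT, with 44.2%, was low among the genes poorer in GC. With a smooth GC trend removed, RRM1 deviated by 0.18, RRM2 by 0.49, DTYMK by -0.62, DCTPP1 by -0.92 and TK1 by -0.10, while DUT deviated by -1.02. TYMS then deviated by -0.13. The reference ranges were not computed with the trend removed, so no position against them is given for these values. The part of base composition in these values was not tested.

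Fewer members stood off at 6 h and 32 h, measured against the mean of the neighbouring time points and beside 17 other time points. The time points beside 6 h include 32 h, and those beside 32 h include 6 h. At 6 h RRM2 lay 0.52 above its neighbours and above its reference range, as were 15.1% of genes. That hour was chosen because RRM2 had its highest value there, so this result was set by the choice. The other 6 were inside their ranges, while 5.98% of genes were below. For DUT (-0.397) and DCTPP1 (-0.331) only the reference value at 32 h (-0.402 and -0.673) was lower. At 32 h RRM2 lay 0.42 above its neighbours, inside its reference range, where only the value at 6 h (0.52) was higher. RRM1 at -0.02 was inside its range too, while 18.4% of genes were above. At 32 h DCTPP1 deviated by -0.67, DUT by -0.40, TK1 by -0.40, DTYMK by -0.33 and TYMS by -0.16. These 5 were below their reference range, as were 15.4% of genes. RRM2 was above at all of 6 h, 16 h and 18 h, and 32 h, as were 33.9% of genes, though 6 h was chosen for RRM2. TYMS, TK1, DUT, DCTPP1 and DTYMK were below at all of them, as were 19.5%. Only the sign was counted here. DTYMK was at -0.0096 at 6 h, and TYMS at -0.035 at 6 h and -0.027 at 16 h and 18 h, all inside their reference ranges. At 6 h and 32 h the correlation with GC content across genes was 0.06 and -0.05. With log2 transcript length it was 0.14 and 0.22, and at 16 h and 18 h it was 0.28. The longest transcripts of RRM1 and RRM2 held 3166 and 3673 bases, and those of the other 5 members held 1222 to 2147. The median over all genes was 3240.5 bases. The part of length in these values was not tested. At 6 h none of the members was 1.5-fold above (2.41% of genes) or below (1.9%), or 2-fold above (0.571%) or below (0.865%). At 32 h DCTPP1 was 1.5-fold below, as were 3.36% of genes, and none was 1.5-fold above (3.4%), 2-fold above (0.449%) or 2-fold below (1.01%).

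**Figure D4:**
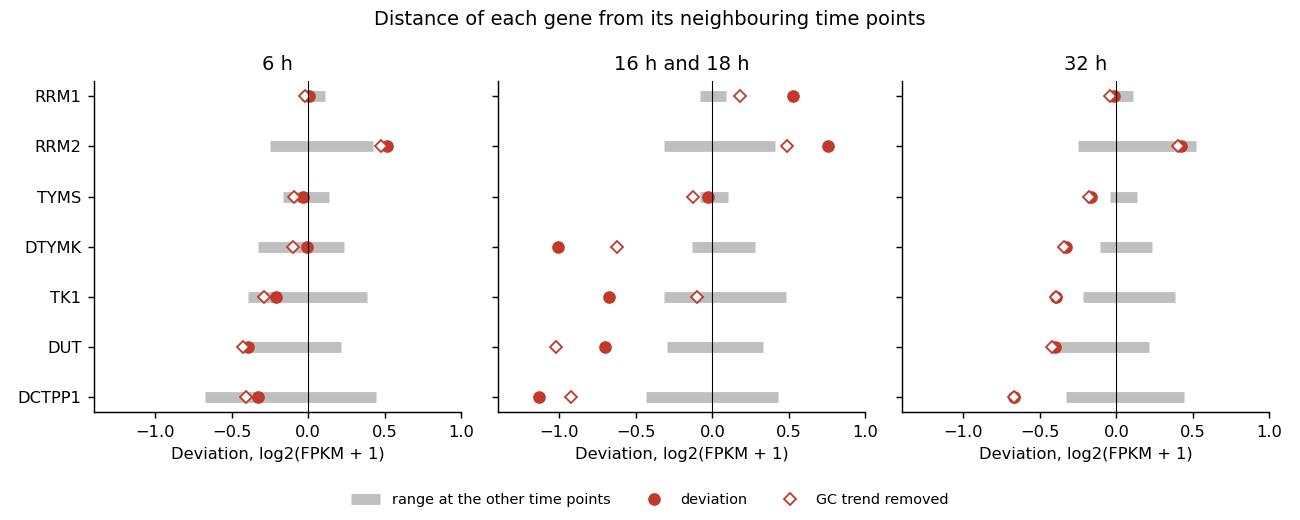
Deviation of each gene from its neighbouring time points at 6 h, at 16 h and 18 h, and at 32 h on log2(FPKM + 1). Filled points keep the GC trend, and open points have it removed. Grey bars are the range of the measure at other time points with the trend kept. DCTPP1 (-1.13) and DTYMK (-1.01) are lowest and RRM2 (0.76) is highest at 16 h and 18 h, and TK1 moves to -0.10 once the GC trend is removed.

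The second 24 h was compared with the first over 12 matched hours with limma, the hour being a block. None of the 7 differed at an adjusted p of 0.05 or below, while 9.57% of genes were higher and 5.16% lower. At an unadjusted p under 0.05, TK1 would have been called: it was higher by 0.23 ± 0.11 (SE) on the log2 scale, in 9 of 12 pairs (limma adjusted p = 0.157). Without the pairs that hold 16 h and 18 h the difference was 0.10 ± 0.08 (limma adjusted p = 0.381), and none of the 7 passed, while 12.6% of genes were higher and 6.8% lower. TYMS differed by -0.10 ± 0.05 and was lower in 10 of 12 pairs (limma adjusted p = 0.203). RRM2 differed by 0.12 ± 0.11 (limma adjusted p = 0.522), and by 0.24 ± 0.10 without the pairs that hold 16 h and 18 h (limma adjusted p = 0.108). Over the 8 pairs free of all 4 named time points RRM2 differed by 0.29 ± 0.09, higher in 7 of 8 (limma adjusted p = 0.0566). There 8.99% of genes were higher and 4.9% lower. These 8 pairs leave out those that hold 6 h (-0.42 for RRM2) and 32 h (0.47). Since 6 h was chosen from the values of RRM2, this p-value rests in part on that choice. DTYMK differed by -0.03 ± 0.11 over the 12 pairs (limma adjusted p = 0.884), by -0.17 ± 0.07 without the pairs that hold 16 h and 18 h (limma adjusted p = 0.123), and by -0.18 ± 0.08 over the 8 pairs, lower in 6 of 8 (limma adjusted p = 0.162). RRM1, DUT and DCTPP1 differed by -0.04 to 0.04 over the 12 pairs. The 95% intervals of all 7 differences over the 12 pairs lay between -0.27 and 0.47.

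**Figure D5:**
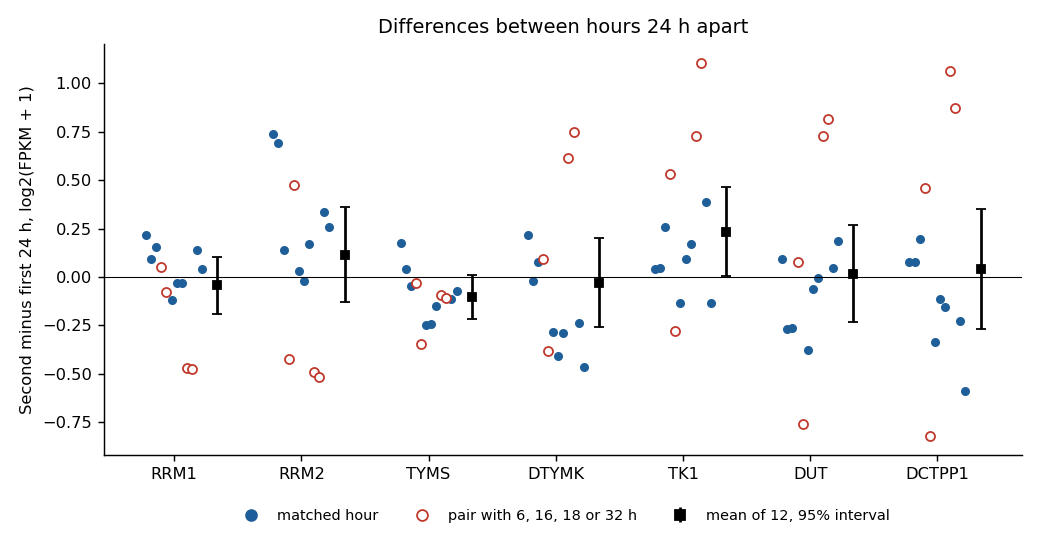
Difference between hours 24 h apart (second minus first) on log2(FPKM + 1) for each gene, with open points for pairs that hold 6, 16, 18 or 32 h and squares for the mean of 12 pairs with its 95% interval. The open points spread farthest, from -0.82 to 1.07 for DCTPP1, and RRM2 is higher on the second day by 0.74 at 0 h and 0.69 at 2 h.

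Leaving out 16 h, 18 h, 40 h and 42 h, the span from lowest to highest level on log2(FPKM + 1) was wider in the first 24 h for RRM2 (1.24 against 0.59), TYMS (0.44 against 0.23) and RRM1 (0.33 against 0.15), and wider in the second for the other 4. With 6 h, 8 h, 30 h and 32 h left out as well, the span of RRM2 in the first 24 h was 0.77 against 0.41, and DUT (0.45 against 0.17) and DTYMK (0.51 against 0.47) were also wider in the first. Over all genes, leaving out only 16 h, 18 h, 40 h and 42 h, it was wider in the first 24 h for 63.1%.

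Among 36 further genes of deoxynucleotide metabolism, 34 were in the table and 5 passed the JTK test, beside 11.9% of all genes. They were RRM2B (adjusted permutation p = 0.0166, phase 22 h), NT5C3A, a pyrimidine nucleotidase (adjusted permutation p = 0.00479, phase 18 h), NUDT1, which removes oxidized purine nucleotides (adjusted permutation p = 0.0367, phase 6 h), and the transporters SLC29A1 (adjusted permutation p = 0.0254, phase 10 h) and SLC25A36 (adjusted permutation p = 0.00479, phase 18 h). Without 6 h, 16 h, 18 h and 32 h, 4 passed and NUDT1 did not, beside 8.64% of all genes. None of the 4 genes of the thymidylate cycle, the 3 other salvage kinases or the 9 nucleotide kinases passed.

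Genes ranked among the 3 most like each member over 22 time points, among the genes averaging 10 FPKM or more, were not other members. They were BCL2L1, DUS2 and SRP54 for RRM1 (rho from 0.79 to 0.85), NABP1, GABBR1 and MYO19 for RRM2 (0.86 each), MRPL38 and MBD3 for TYMS (0.94 to 0.95), and DNAJC5 and GAPVD1 for TK1 (0.75 to 0.76). For DUT they were GGH, HBG2 and COX5A (0.80 to 0.84), of which HBG2 has a near-identical copy, for DCTPP1 EIF6, OIP5 and ZNRD2 (0.89 to 0.91), and for DTYMK STARD7, GET3 and TRIAP1 (0.92 to 0.93). Among the members themselves, rho was 0.74 between DCTPP1 and DTYMK, 0.62 between RRM1 and TK1, 0.59 between RRM1 and RRM2, and -0.30 between RRM2 and DUT. Over all 24 time points these were 0.80, 0.25, 0.65 and -0.45. Without 6 h, 16 h, 18 h and 32 h they were 0.75, 0.70, 0.63 and -0.09.

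Some members overlap other genes in GENCODE 29 or lie close to them. Where genes overlap, reads may be shared, since whether the libraries kept the strand was not given. ENOSF1 lies on the other strand and overlaps TYMS by 3255 bases, with a median of 38.0 FPKM and 65.7 FPKM at 46 h, where TYMS was at 282.5 FPKM. TYMSOS, also on the other strand, overlaps TYMS by 737 bases at a median of 7.57 FPKM. ZNF771 overlaps DCTPP1 (median 5.79 FPKM), AC023355.1 overlaps DUT (median 1.04 FPKM), and ING5 starts 94 bases from DTYMK (median 12.7 FPKM). By name, 8 pseudogenes of DUT, 3 of RRM2 and 2 of TYMS are annotated, with 0 of them in the table, and how reads shared with them were counted was not given in the sources used here.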

How the data were processed

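RNA sequencing of 24 K562 libraries, 1 per time point from 0 h to 46 h, was analysed. The deposited expression values are FPKM, made by the authors with STAR, Cufflinks and Cuffnorm (build GRCh37, per the submitters' processing notes, versions not given). A second deposited table held a score per gene, which equalled a Z-score followed by quantile normalization of the FPKM to within 8.88e-16 and served as an alternative. Depth is unknown.

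Columns were matched to samples by their labels. JTK ran on FPKM in Python 3.11.15 (100000 orderings, random seed 7). The cosine and day fits used limma 3.58.1 in R 4.3.3 on log2(FPKM + 1), keeping genes that averaged 1 FPKM or more. Calls were made at an adjusted p of 0.05, and tests were tested on simulated data. GC content and neighbouring genes came from GENCODE 29, promoters from RefSeq. Because there was 1 library per time point, the cosine p-values rest on the spread around the fitted curves. Those of the day contrast rest on the spread of the paired differences, and those of JTK on random orderings of the time points. Neighbouring hours are not independent, which none of these p-values takes into account. Genes were named by rule: the 7 members, pathway genes that passed JTK, 3 references and the 3 genes most like each member. Overlapping or neighbouring genes were also named. Of the genes most like a member, 2 are not reported here. Members and lists were chosen with earlier results of these data known. Alternatives covered scaling, pseudocount, filters, periods, GC content and time points left out.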

Additional observations from a re-analysis of the deposited data

How the results depend on the processing

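No paired analysis was possible because, as far as replicate numbers go, each time point had 1 library. The 12 matched hours paired the days in the day contrast, and without that block it also called 0 members. The count of members passing JTK was 1, and it was 0 with quantile normalization of FPKM, with division by the median or the upper quartile, with a period of 28 h and with a GC trend removed. Leaving out 1 time point at a time gave 0 to 1. The causes were not tested. The count over all genes differed between random orderings, and the cause was not tested. It was 1460 with the seed set at the start (7) and 1602 with each of the 3 other seeds tried and with 1000000 orderings, all run after the first count was seen. TYMS passed in every one of these 5 runs (adjusted permutation p from 0.0351 to 0.0369). Pathway genes passing numbered 5, and 3 with a period of 20 h, 2 with a period of 28 h and 1 with the GC trend removed. In each of these 3 settings the share of all genes passing was also below the 11.9% of the main run. Whether the pathway genes lost more calls than other genes was not tested. The cosine fit called 0 members, and 1 with a linear drift, which was TK1. It called 1, which was TYMS, without 16 h and 18 h, and without 6 h, 16 h, 18 h and 32 h. Leaving out 1 time point gave 0 to 1, the 1 being TYMS without 32 h. The day contrast called 0 in all 12 fits that left out a matched hour.

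Members 2-fold off at 16 h and 18 h numbered 2, DCTPP1 and DTYMK, and 5 at 1.5-fold. With the GC trend removed there was 1, which was DUT (-1.02), while DCTPP1 (-0.92) and DTYMK (-0.62) fell short. At 32 h there was 1 at 1.5-fold. The span was wider in the first 24 h for 3 members, beside 63.1% of all genes. It was so for 7 with 16 h, 18 h, 40 h and 42 h kept. It was so for 5 without the pairs that hold the 4 named time points, an alternative added after seeing the data. For these alternatives the share over all genes is not given.

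Day differences near 0 changed sign. RRM1 was at 0.00254 with the upper quartile, 0.044 without 16 h, 18 h and their partners and 0.058 over 8 pairs. DUT was at -0.13 and -0.081, and DCTPP1 at -0.14 and -0.13, in the last 2 of these settings. DTYMK was at 0.015 with the upper quartile, but at -0.17 and -0.18 in those last 2 settings. Leaving out 1 matched hour at a time gave -0.055 to 0.088 for DUT, -0.051 to 0.12 for DCTPP1 and -0.0990 to 0.012 for DTYMK.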
